A study of Rattus norvegicus with 241 samples.

Results

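The transforming growth factor beta (TGF-beta) receptor family was followed here through its 6 genes TGFBR1, ACVRL1, ACVR1B, TGFBR2, TGFBR3 and ENG, which were taken by symbol, ignoring case, from every bulk and single-cell table and make up 6 of 21707 genes in the series. All 6 were present in each bulk and single-cell data set. The rule used no measured value. The rats carried no transgene and were female ACI rats, an inbred strain, or SD (Sprague-Dawley) rats, an outbred strain.

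TGFBR1 and TGFBR2 work together as a complex on the cell surface: TGFBR2 is the type II receptor that holds the ligand, TGFBR1 the type I partner, and SMAD proteins carry their signal to the genes. ACVRL1 (ALK1) is the type I receptor that endothelial cells use for BMP9 and BMP10, and ACVR1B (ALK4) is the type I receptor for activins and nodal. TGFBR3 (betaglycan) and ENG (endoglin, also called CD105) are type III receptors without kinase activity that present ligand to the others, ENG chiefly in endothelium. In the mammary gland, TGF-beta restrains epithelial proliferation and shapes the stroma.

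The drug, TGFBRi, was LY2157299 (galunisertib), a small molecule that inhibits the kinase of TGFBR1, given by oral gavage at 75 mg/kg in 2 doses per day. Controls received vehicle. Young virgin ACI rats were treated for 10 days from 35 days of age and harvested 0, 7 or 14 days after the last dose, with 3 rats per group in each of the basal, luminal and CD45+ sorts. Young virgin SD rats were treated for 10 days from 24 days of age and harvested at day 0, with 4 rats per group in the bulk sorts. Adult virgin and parous ACI rats were treated for 10 days and harvested at day 0, with 4 rats per group in the basal and luminal sorts, 4 vehicle and 3 treated virgin rats in the CD45+ sort, and 2 vehicle and 4 treated parous rats in the CD45+ sort. In the carcinogen experiment, SD rats were treated for 10 days from 21 days of age, received 50 mg/kg of N-nitroso-N-methylurea (NMU), and were harvested at day 87. Its gland sorts came from 3 tumor-bearing vehicle, 3 tumor-bearing TGFBRi and 3 tumor-free TGFBRi rats, and its tumors were sorted for EPCAM or CD45 in 3 vehicle and 3 TGFBRi rats. In the estradiol (E2) experiment, ACI rats received the doses over 21 days, beginning at 38 days of age. They then carried an implant that held either 37 mg of estradiol or only air (without E2). Its luminal and CD45+ sorts held 4 vehicle and 3 TGFBRi rats without E2, 4 tumor-bearing vehicle and 2 tumor-bearing TGFBRi rats with E2, and 4 tumor-free TGFBRi rats with E2, whose 7 gland parts were averaged per rat.

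Basal cells were sorted as CD24+CD29high and luminal cells as CD24+CD29low, both without CD31 and CD45. Single-cell libraries covered sorted basal and luminal cells of young ACI rats (3 vehicle, 3 TGFBRi, 16762 cells) and young SD rats (3 vehicle, 6 TGFBRi, 39766 cells), and the unsorted gland of young SD rats (3 vehicle, 6 TGFBRi, 103524 cells), all at day 0. The 202 bulk samples held 4194912 to 52314784 reads. Of these, 19 libraries were short of reads in long genes relative to short ones, and TGFBR2 was lower in all 19 than in every library of its group that was not short of such reads, TGFBR3 in 16, ENG in 15, TGFBR1 in 14, ACVR1B in 13 and ACVRL1 in 12. Called bulk results that rest on these libraries are given with and without them. Bulk values are normalized read counts, and bulk log2 differences are on the log2(value + 1) scale, which understates changes of low genes. Within each sort and in the unsorted gland, samples are separate rats unless stated, and p-values measure the spread between them. Basal and luminal sorts came from the same rats, and the main tests between these sorts did not pair them by rat. Fits with the rat as a block are alternatives.

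In the unsorted gland of vehicle rats ENG was highest in endothelium-like and pericyte-like cells, and TGFBR3 in Schwann-like cells. Levels are UMI counts summed per class and rat and scaled to that sum (CPM). ENG was at 897.7 ± 132.5 CPM (SD, n = 3 rats) in blood endothelium-like cells, 364.9 in lymphatic endothelium-like cells, 260.6 in pericyte-like, 79.6 in Schwann-like, 60.5 in fibroblast-like, 52.9 in neutrophil-like, 41.9 in basal-like and 37.6 in macrophage-like cells, against 12.07 in luminal progenitor-like, 10.66 in NK-like, 8.07 in mature luminal-like, 6.15 in B cell-like and 5.08 in T cell-like cells. The share of free RNA in the droplets was not measured, so its part in the lowest values was not tested. Over all 9 rats, each step of the order from blood endothelium to lymphatic endothelium (mean log2 difference 1.23), pericyte (0.48) and fibroblast (2.44), and that from macrophage to luminal progenitor (1.13), was larger than the spread between rats (exact sign-flip permutation test, two-sided, adjusted p of 0.0352 or 0.0433, adjusted over the 72 neighbouring pairs of the 6 genes, smallest possible unadjusted p 0.00391). The steps are given over all rats, and that from macrophage to luminal progenitor was 1.67 in vehicle and 0.86 in treated rats. Classes were named from clusters that were made without the 6 receptor genes.

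TGFBR3 had another order. Schwann-like cells led with 213.9 ± 48.1 CPM, followed by lymphatic endothelium-like (103.3), fibroblast-like (101.01), basal-like (95.9), blood endothelium-like (63.4) and pericyte-like cells (62.5), and the remaining classes lay between 1.71 and 15.3. Steps were tested in the order over all 9 rats, in which fibroblast-like cells came next to Schwann-like cells and luminal progenitor-like cells next to pericyte-like cells. The step from Schwann to fibroblast (mean log2 difference 0.82) passed the test and was 1.05 in vehicle and 0.70 in treated rats. That from pericyte to luminal progenitor (1.32) also passed, and was 2.32 in vehicle and 0.82 in treated rats. The order among lymphatic endothelium, fibroblast, basal and blood endothelium was within the spread between rats. Schwann-like cells held the largest share of cells with high doublet scores, 25.3%. Without such cells the Schwann to fibroblast difference was -0.04 over all rats, 1.06 in vehicle rats and -0.59 in treated rats, of which rat ly1 was left with 21 Schwann-like cells and 0 TGFBR3 UMIs of 42246, which allows up to 71 CPM (3 counts, counting error only).

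ACVRL1 stood out in 6 classes. Blood endothelium-like and fibroblast-like cells both stood at 26.5 CPM, lymphatic endothelium-like cells at 16.7, neutrophil-like cells at 9.33, pericyte-like cells at 8.35 and macrophage-like cells at 8.24, and no other class passed 1.57. The steps from fibroblast to lymphatic endothelium (0.89) and from pericyte to Schwann (2.68) passed the test. At a clustering resolution of 0.5 the first missed the threshold (exact permutation test, adjusted p = 0.0649). The step from pericyte to Schwann was no longer between neighbours at that resolution or with a pseudocount of 10 CPM.

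TGFBR2 was broadly spread. It ranged from 102.3 in B cell-like and 101.4 in blood endothelium-like cells, through 87.8 in fibroblast-like, 63.8 in basal-like and 42.9 in mature luminal-like cells, down to 17.7 in luminal progenitor-like cells. In all 9 rats mature luminal-like cells held more TGFBR2 than luminal progenitor-like cells, with a mean log2 difference of 1.01, and the steps from B cell to fibroblast and from Schwann to pericyte passed as well. TGFBR1, the drug target, varied least, from 11.2 in NK-like to 31.8 in mature luminal-like cells, and none of its neighbouring steps passed. ACVR1B was highest in mature luminal-like cells at 24.3, above blood endothelium-like cells at 12.9 (log2 difference over all 9 rats 0.57, passed in the same test, 0.87 in vehicle and 0.43 in treated rats), and stood at 7.21 in basal-like and 6.83 in luminal progenitor-like cells. In all, 13 of the 72 steps passed, or 9 without the cells of high doublet score. Of the 13, the steps from B cell to fibroblast for TGFBR2 (0.0938), from lymphatic endothelium to pericyte for ENG (0.13) and from mature luminal to blood endothelium for ACVR1B (0.0511) then missed the threshold (exact permutation test, adjusted p). The Schwann steps of TGFBR2 and TGFBR3 and a step from T to B cells for ACVR1B were then no longer between neighbours. At a clustering resolution of 0.5 the ENG steps from blood endothelium down to fibroblast were not between neighbours. Both ACVR1B steps (0.0511) and the TGFBR2 step from Schwann to pericyte (0.592) missed the threshold there (exact permutation test, adjusted p).

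**Figure D1:**
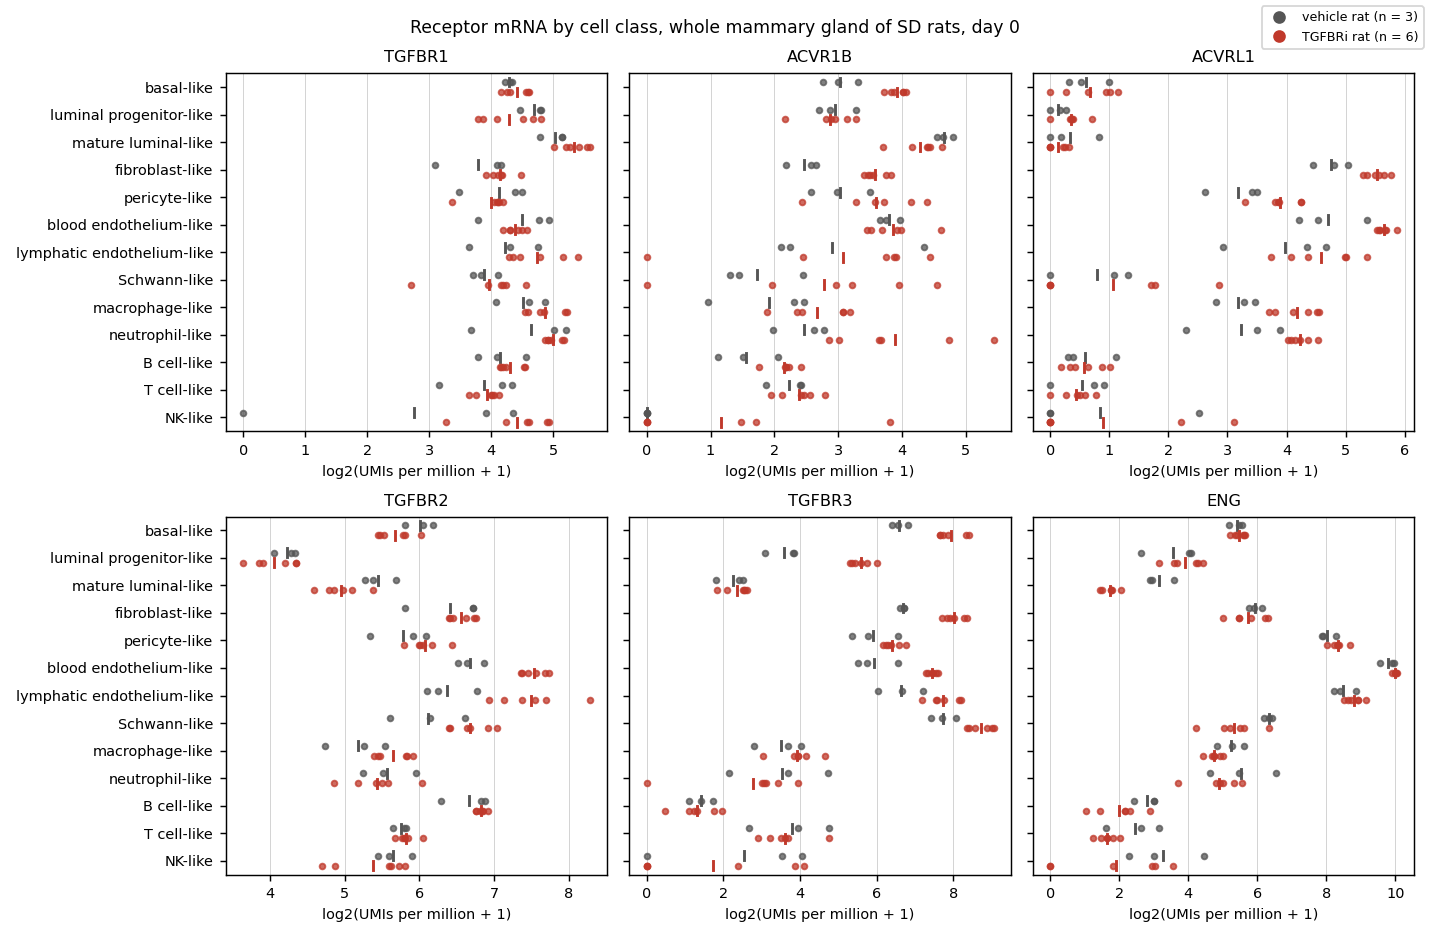
Each panel plots 1 receptor gene in 13 cell classes of the unsorted SD gland; points are rats (3 vehicle in grey, 6 TGFBRi in red), vertical ticks are group means and the x axis is log2(CPM + 1). ENG spans the widest range of group means on this axis, and the TGFBR3 points of treated rats lie right of the vehicle points in basal-like, luminal progenitor-like, fibroblast-like, blood endothelium-like and Schwann-like cells.

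Across the 13 class means of vehicle rats, as a description over classes that share libraries, Pearson's r was 0.815 between TGFBR1 and ACVR1B, 0.781 between ACVRL1 and ENG, 0.735 between TGFBR3 and ENG and 0.45 between TGFBR3 and ACVRL1. TGFBR2 had its highest r, 0.434, with ENG and its lowest, -0.27, with TGFBR1. The genes whose pattern was most like each receptor, among 5815 genes with at least 50 CPM in some class, were RHOJ (r = 0.969), TGM2 (0.955) and ADAMTS9 (0.95) for ENG. For ACVRL1 they were NPR1 (0.934), CALCRL (0.915) and VCAM1 (0.903), and for TGFBR3 LAMB1 (0.948), COL12A1 (0.936) and PHLDB1 (0.922). For TGFBR2 they were PLEKHA3 (0.851), CASP8AP2 (0.83) and RABEP1 (0.806), for TGFBR1 ATP6V1A (0.881), BAZ2B (0.859) and DAP3 (0.853), and for ACVR1B HMG20B (0.874), DAP3 (0.863) and TOR1AIP2.1 (0.854).

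In the bulk sorts of vehicle rats, ENG and TGFBR3 were basal genes in both strains. In young ACI rats at day 0, ENG stood at 6379, 3700 and 6163 normalized counts in basal cells and at 320, 199 and 365 in luminal cells of the 3 rats, and TGFBR3 at 2512, 1195 and 2608 against 309, 111 and 167. Every basal library was above every luminal library for both genes. The log2 difference was 4.1999 ± 0.54 (SE) for ENG (limma, adjusted p = 7.75e-07) and 3.46 ± 0.91 for TGFBR3 (limma, adjusted p = 0.0054).

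The same held at the later days, with ENG higher in basal cells by 4.098 on the log2 scale at day 7 (limma, adjusted p = 1.44e-06) and 3.21 at day 14 (limma, adjusted p = 4.47e-05), and TGFBR3 by 3.51 (adjusted p = 0.0064) and 2.71 (adjusted p = 0.033). Without the libraries low in long genes the differences at days 7 and 14 were 4.304 and 3.749 for ENG (limma, adjusted p = 4.58e-09 and 6.32e-09) and 4.204 and 3.591 for TGFBR3 (adjusted p = 4.02e-05 and 6.38e-05). The TGFBR3 calls with all libraries were lost without the basal library of LD5R at day 7 (0.071) and, at day 14, without the luminal library of LD11L, LD11R or LD12R or the basal library of LD11R or LD12R (0.060 to 0.144). Of all genes tested, 20.5% at day 0, 14.7% at day 7 and 19.3% at day 14 passed between the sorts. The other 4 receptors did not pass in ACI rats, with log2 differences of 1.05, 1.27 and 0.045 for TGFBR2 at the 3 days. Without the libraries low in long genes, TGFBR2 was higher in basal cells by 1.05, 1.25 and 1.00 (limma, adjusted p = 0.0078, 0.016 and 0.027), ACVR1B by 1.26, 2.08 and 1.21 (adjusted p = 0.0072, 0.00092 and 0.025), and ACVRL1 by 2.19 at day 0 and 2.83 at day 7 (adjusted p = 0.038 and 0.045), against 34.9%, 20.4% and 29.1% of all genes. With the rat as a block, limma also called TGFBR2 at days 0 and 7 (adjusted p = 0.042 and 0.019), ACVR1B at day 7 (0.0035), ACVRL1 at days 0 and 7 (0.029 and 0.044) and TGFBR1 at day 14, where it was lower in basal cells by -1.51 (0.032). The block raised the calls over all 15824 genes as well, to 5472, 4228 and 5199 at days 0, 7 and 14. Without it they were 3241, 2323 and 3053. The basal library of LD11L at day 14, which was low in long genes, held 74.9 normalized counts of TGFBR1, against 1038.8 and 1470.2 in the other basal libraries. In fits without the block that left out 1 library, this TGFBR1 difference ran from -2.31 to -0.17. The blocked fit was not repeated without the libraries low in long genes.

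In young SD rats 4 receptors were higher in basal cells. TGFBR3 stood at 1359, 1163, 1257 and 1998 normalized counts in basal cells and at 95.9, 57.7, 20.8 and 31.7 in luminal cells, a log2 difference of 4.98 ± 0.45 (limma, adjusted p = 2.75e-10). TGFBR2 stood at 1244, 1458, 1252 and 1510 against 172, 332, 225 and 418, a difference of 2.32 ± 0.35 (limma, adjusted p = 3.62e-06). ENG stood at 2891, 2180, 3304 and 3606 against 1534, 568, 377 and 698, a difference of 2.09 ± 0.43 (limma, adjusted p = 0.000197).

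None of these 3 genes overlapped between the sorts. The share of all genes without overlap is not given for this or any other bulk comparison. Without the 2 luminal libraries low in long genes the differences were 5.01 for TGFBR3 (limma, adjusted p = 9.48e-09), 1.87 for TGFBR2 (0.000585) and 2.22 for ENG (0.00102). TGFBR1 was at 440, 363, 312 and 478 in basal and 160, 123, 26.4 and 224 in luminal cells, a difference of 1.90 ± 0.57 (limma, adjusted p = 0.0070). That call rested on the luminal library of rat C7N, which was low in long genes: without it alone the difference was 1.26 (limma, adjusted p = 0.070). Without all libraries low in long genes it was 1.24 (adjusted p = 0.101). Background shares were 40.9% of all genes with every library and 26.4% without those libraries. In the NMU gland, tumor-bearing vehicle rats had TGFBR3 higher in basal cells by 3.40 (limma, adjusted p = 8.97e-06), TGFBR2 by 2.26 (adjusted p = 8.71e-05) and ENG by 1.89 (adjusted p = 0.0041, 1.38 and 0.0586 without the luminal library of rat C2N), with 27.3% of all genes called, or 29.2% without the libraries low in long genes.

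Fibroblast markers moved with the basal sort. Their 8 measured genes summed to 34500 to 53530 RPM (reads scaled to the gene reads of a library) in the SD basal sort, above its own basal markers at 11470 to 13580, and to 260.6 to 1465 in the SD luminal sort. In ACI rats at day 0 the basal sort held 3487 to 8944 and the luminal sort 700.6 to 1450, and in the NMU gland the sorts held 1674 to 9816 and 299.5 to 553.3. TGFBR3, TGFBR2 and ENG were all present in fibroblast-like cells of the unsorted gland, and the part of these cells in the bulk differences between sorts was not tested.

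In adult ACI rats the 2 sorts were scaled separately, so their levels are set side by side in RPM without a test. ENG ran from 465.44 to 697.4 RPM (median 541.38) in basal cells of virgin vehicle rats and from 40.6 to 203.89 (median 41.33) in their luminal cells, and in parous rats from 448.93 to 805.12 and from 19.44 to 86.18. TGFBR3 ran from 94.02 to 131.88 against 12.4 to 27.69 in virgin rats, and TGFBR2 from 69.46 to 148.71 against 25.84 to 53.71. For all 3 genes the lowest basal library lay above the highest luminal library in both parity groups. TGFBR1, ACVR1B and ACVRL1 are not set side by side here. The share of all genes that separate these sorts is not given, so the separation is not set apart from that of other genes.

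Other TGF-beta pathway genes were read beside the receptors. Of 13 measured target genes of the pathway, 7 were higher in basal cells and 0 lower at each of the 3 days in ACI rats, among them CCN2 and TAGLN, with median log2 differences of 2.02, 2.29 and 2.43 against 0.212, 0.036 and 0.0 over all genes, of which 20.5%, 14.7% and 19.3% passed. TAGLN, an actin-binding protein of contractile cells, was higher by 7.597 at day 0. In SD rats 8 of 13 were higher and 2 lower, against 40.9% of all genes called, and in the NMU gland 6 of 13 were higher and 1 lower, against 27.3%. No test set the targets apart from all genes.

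**Figure D2:**
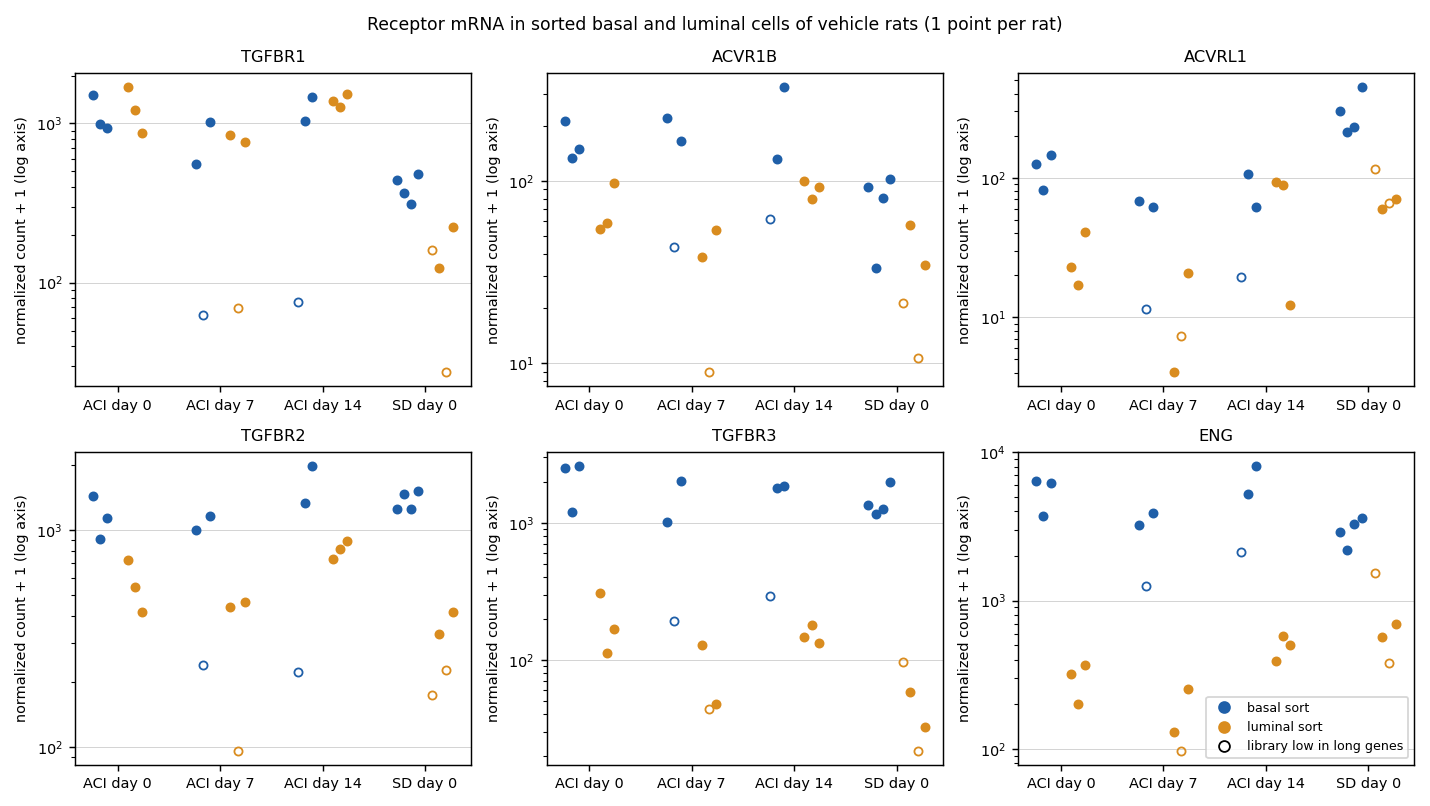
Normalized counts + 1 (log axis) of the 6 receptors in basal (blue) and luminal (orange) bulk sorts of vehicle rats, 1 point per rat, at days 0, 7 and 14 in ACI rats and day 0 in SD rats; open points are libraries low in long genes. Basal points of ENG and TGFBR3 lie above the luminal points in every set, and the open points of TGFBR2 lie at the bottom of their groups.

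In the single-cell sorts, read per rat, ENG and TGFBR3 were again higher in basal cells of both strains. In ACI vehicle rats the basal sort held 97.6 CPM of ENG against 1.88 in the luminal sort (log2 difference 5.62, edgeR, adjusted p = 5.4e-10) and 823 of TGFBR3 against 44.8 (4.19, adjusted p = 6.1e-10). In SD rats ENG was at 66.6 against 5.65 (3.43, edgeR, adjusted p = 0.000105) and TGFBR3 at 557 against 44.01 (3.503, adjusted p = 1.05e-05). ACVR1B was higher in basal cells in both strains, at 23.6 against 12.96 in ACI (0.85, edgeR, adjusted p = 9.6e-06) and 26.7 against 10.5 in SD (1.18, adjusted p = 0.0031). These counts stand beside 65.2% of all genes called in ACI and 41.6% in SD.

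TGFBR2 went the other way in ACI single cells, at 31.2 in the basal against 39.3 in the luminal sort (log2 difference -0.33, edgeR, adjusted p = 0.078), with overlapping rats. DESeq2 gave an adjusted p of 0.127, and leaving out basal ACI8 or ACI9, or luminal ACI7 or ACI8, gave 0.118 to 0.314. In SD the difference was 0.66 (adjusted p = 0.256), and with the rat as a block the adjusted p was 0.007. Within the luminal sort of the ACI vehicle rats, TGFBR2 was at 56.94 CPM in mature luminal-like and 24.84 in luminal progenitor-like cells, whereas TGFBR3 was at 6.18 and 79.1.

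ACVRL1 was scarce in the single-cell sorts, which were counted at the 3' end, although the bulk basal sort of SD vehicle rats held 212 to 444 normalized counts (19.09 to 38.87 RPM). The basal sort of ACI vehicle rats held 13 ACVRL1 UMIs of 41007130, the luminal sort 2 of 42768841, a ratio of 6.78 (95% exact interval 1.53 to 61.9, counting error only). In SD the counts were 42 of 21083813 and 1 of 46261192, a ratio of 92.2 (15.7 to 3730). Of the 42, 31 came from rat SD2, and the ratio was 33.5 (4.87 to 1440) without its basal library and 142.0 (24.0 to 5740) without that of SD3. Of the 13 in ACI rats, 12 came from rat ACI7, and without its basal library the ratio was 1.11 (0.0188 to 21.3). Both differences passed the test across rats (edgeR, adjusted p = 0.066 and 0.000185), the ACI one only with all libraries: DESeq2 gave 0.201, the rat block 0.105, and leaving out the ACI7 basal, ACI7 luminal or ACI8 luminal library gave 0.952, 0.127 and 0.141. Over all SD rats, 162 of the 168 ACVRL1 UMIs of the basal sort (96.4%) lay in 874 fibroblast-like cells, which were 5.47% of its cells, and 4 lay in 14196 basal-like cells. All sorted cells in the files held at least 2 UMIs of keratins, a filter set by the authors to remove stroma. These 874 cells had a median of 3 keratin UMIs against 87 in basal-like cells, and their fibroblast markers summed to 22880 CPM against 11.35 and their basal markers to 5763 against 13990. In ACI rats 10 UMIs (52.6%) lay in 44 fibroblast-like cells and 9 in 9707 basal-like cells. Over all rats, ENG was at 118.66 CPM in the fibroblast-like and 37.37 in the basal-like cells of the SD basal sort. The paper described a rare population in these sorts, which it named secretory basal cells. It took them to be epithelial, from tissue staining of their markers together with EPCAM. Whether the fibroblast-like cells here are that population was not tested.

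In the bulk sorts the receptors gave few calls between TGFBRi and vehicle rats. Among 192 tests of the 6 genes in 32 comparisons of TGFBRi with vehicle, 4 passed at an adjusted p of 0.05 and 23 had an unadjusted p under 0.05 (limma). TGFBR1, whose kinase the drug inhibits, had log2 differences from -2.39 to 2.86 with a median of 0.014, and TGFBR2 from -2.96 to 1.24 with a median of 0.024. These ranges include the libraries low in long genes. In CD45+ cells of adult virgin rats, such a library of treated rat N1R held 1.571 normalized counts of TGFBR2. The other treated rats of that group had 2151.25 and 2221.92. ENG was lower in 22 of the 32 comparisons with a median of -0.22. Many of these comparisons share vehicle rats or come from the same rats. Over the 32 comparisons 0.588% of all genes passed, and over the 29 without a call of a receptor 0.212%. In sorted bulk cells, fewer cells of a type and less RNA per cell cannot be told apart.

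**Figure D3:**
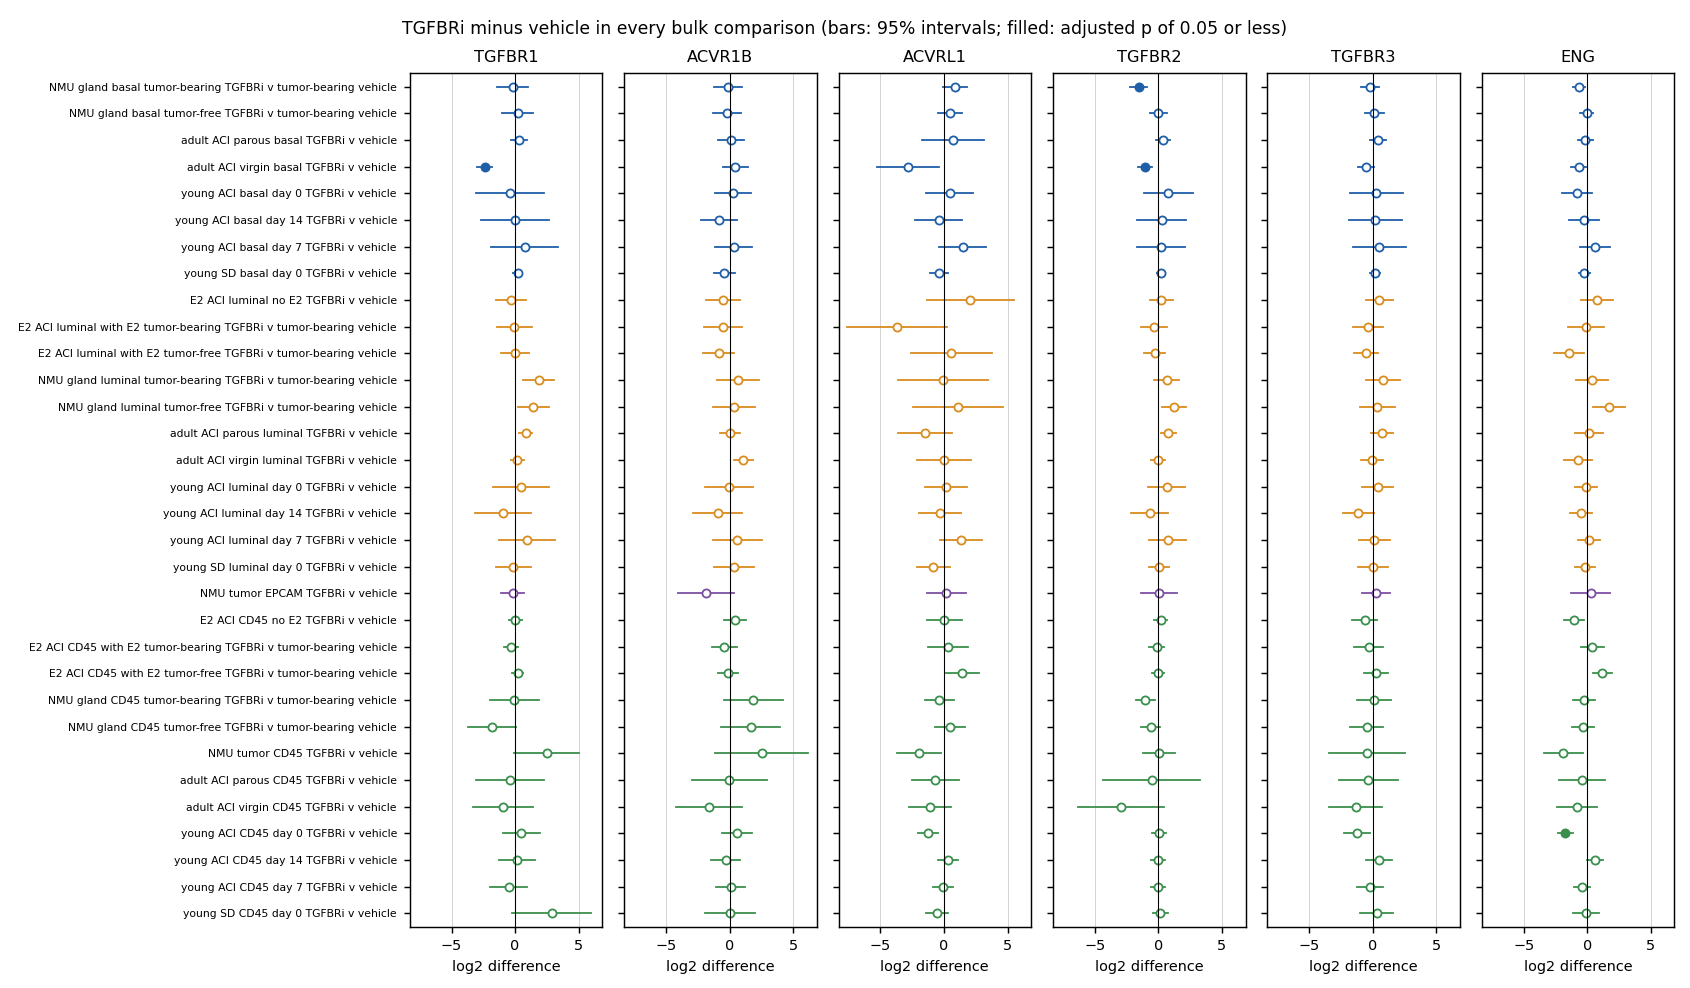
Log2 difference, TGFBRi minus vehicle, with its 95% interval, of the 6 receptors in all 32 bulk comparisons, coloured by sort; filled points passed at an adjusted p of 0.05. The 4 filled points are ENG in CD45+ cells of ACI rats at day 0, TGFBR1 and TGFBR2 in basal cells of adult virgin rats, and TGFBR2 in basal cells of tumor-bearing NMU rats, all left of 0.

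Basal cells of adult virgin ACI rats had lower TGFBR1 and TGFBR2. TGFBR1 stood at 382, 519, 666 and 995 normalized counts in the vehicle rats and at 80, 107.04, 129 and 153 in the TGFBRi rats. Every treated value was below every vehicle value. It fell by 2.39 ± 0.31 (SE) on the log2 scale (limma, adjusted p = 0.000614), by 2.69 without the 2 treated libraries low in long genes (adjusted p = 0.0007), and in every fit that left out 1 rat.

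TGFBR2 stood at 1588, 1589, 2341 and 4021 in vehicle and at 774, 982, 1286 and 1332 in TGFBRi rats, also without overlap, and fell by 1.05 ± 0.27 (limma, adjusted p = 0.0246). Its call was lost without the libraries low in long genes (-0.75, adjusted p = 0.171), when only the 2 groups were fitted (0.137), and without vehicle N1N (0.0562), vehicle N2N (0.0682), TGFBRi N2N (0.0532) or TGFBRi N2R (0.0546). Of all genes 8.73% passed in this comparison, or 4.43% without the libraries low in long genes, and the median over all genes was -0.25.

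The other receptors did not pass there: ENG had a log2 difference of -0.66 (limma, adjusted p = 0.18), TGFBR3 -0.54 (0.28), ACVRL1 -2.84 (0.16) and ACVR1B 0.45 (0.60). Of 14 pathway targets, CDKN1A rose by 2.27 and LTBP2 and FN1 fell by 2.67 and 2.75, beside the 8.73% of all genes called. CDKN1A encodes the cell cycle inhibitor p21, LTBP2 and FN1 matrix proteins. Summed basal markers ran from 10130 to 23140 RPM (median 22630) in vehicle and from 9780 to 22180 (median 11850) in treated rats. Fibroblast markers ran from 1221 to 3057 (median 1570) and from 446 to 5481 (median 633.2), and the long-gene measure, on which low libraries lie at -0.5 or less, from -0.21 to 0.07 and from -0.62 to -0.06. The part of these in the TGFBR1 and TGFBR2 values was not tested.

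In parous rats TGFBR1 ran from 373.4 to 688.9 (median 604.5) in vehicle and from 555.8 to 750.3 (median 731.8) in treated basal cells, and no receptor passed. Their long-gene measure ran from -0.06 to 0.18 and from 0.14 to 0.24. The TGFBRi effect on TGFBR1 differed between parous and virgin rats by 2.70 ± 0.43 on the log2 scale (limma interaction, adjusted p = 0.0116, 3.00 and 0.005 without the libraries low in long genes), a call made for 1.04% of all genes, or 1.26% without those libraries. For TGFBR2 the same difference was 1.41 (adjusted p = 0.083). Between parous and virgin vehicle rats none of the 6 genes passed in any sort (3 comparisons, 18 tests, smallest adjusted p 0.38 for TGFBR1, 1 with an unadjusted p under 0.05, 0.0% of all genes).

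In the NMU gland, TGFBR2 in basal cells stood at 967, 1359 and 1585 in tumor-bearing vehicle rats and at 250, 534 and 623 in tumor-bearing TGFBRi rats. Tumor-free TGFBRi rats had 1097, 1323 and 1447, within the range of the vehicle rats. The tumor-bearing TGFBRi rats were lower than both other groups without overlap, and TGFBR2 fell by 1.55 ± 0.34 against the vehicle rats (limma, adjusted p = 0.0461), where 1.31% of all genes passed.

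The lowest value, 250, was a library low in long genes, and without it the difference was -1.15 (adjusted p = 0.0779, 0.839% of all genes). On the long-gene measure the treated rats stood at -0.58, -0.26 and -0.02 and the vehicle rats at 0.0, 0.0 and 0.14, so that the groups stayed apart without that library. The call was also lost without vehicle C2N (0.126), C2R (0.1996) or C5R (0.140), or TGFBRi D4R (0.073). No pathway gene of the 4 lists passed beside it. Basal markers ran from 26090 to 31650 RPM in vehicle and from 31950 to 38560 in tumor-bearing TGFBRi rats, and Schwann markers from 551.6 to 694.8 and from 230 to 374.6. Their part in the TGFBR2 value was not tested.

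**Figure D4:**
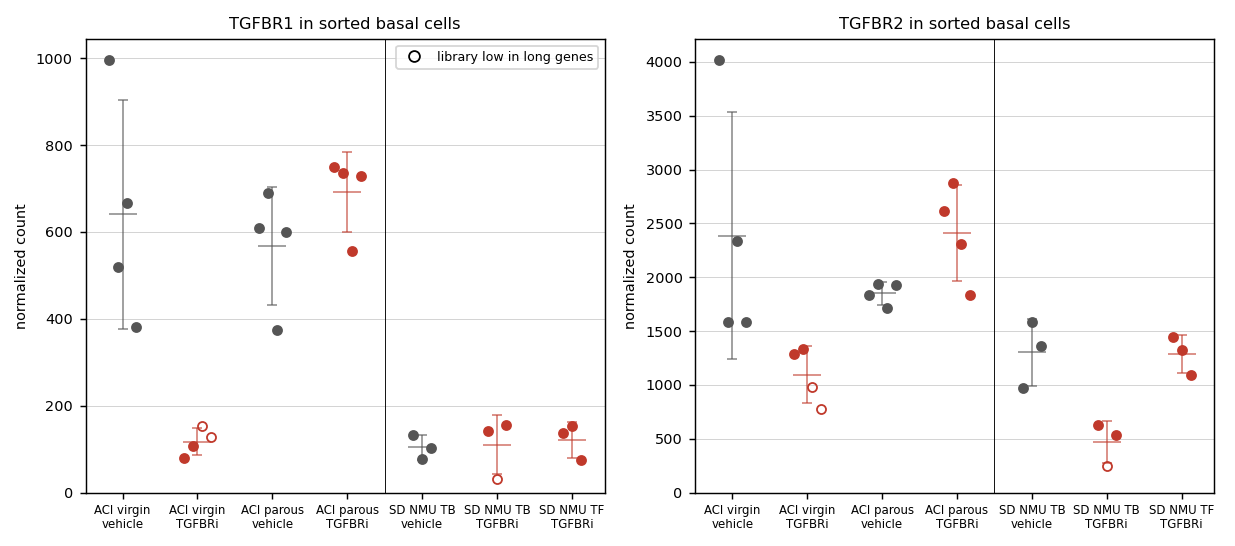
Normalized counts of TGFBR1 (left) and TGFBR2 (right) in basal sorts of adult ACI and NMU-exposed SD rats, 1 point per rat with mean and SD; TB is tumor-bearing, TF tumor-free, and open points are libraries low in long genes. TGFBR1 of the treated virgin rats lies at 80 to 153, below the 382 to 995 of the vehicle rats, and TGFBR2 of the treated tumor-bearing rats at 250 to 623.

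In NMU tumors no receptor passed in either sort. TGFBR2 in EPCAM+ cells was at 866, 3126 and 3595 normalized counts in tumors of vehicle rats and 807, 3504 and 3645 in tumors of TGFBRi rats, and each group held 1 low and 2 high libraries, the low treated one (rat D4R) also being low in long genes. Without it the TGFBR2 difference was 0.74 (limma, adjusted p = 1.0). Fibroblast markers summed to 9753 to 78830 RPM (median 63200) in this sort of vehicle and 20550 to 67820 (median 64770) of TGFBRi rats. Luminal markers summed to 4801 to 14710 (median 7695) and 2192 to 5440 (median 3303). The fibroblast and luminal ranges overlapped in vehicle rats and not in TGFBRi rats. The part of the fibroblast markers in the receptor values was not tested. ENG ran from 783 to 5785 in EPCAM+ cells of vehicle and from 993 to 4716 in those of TGFBRi rats. In CD45+ cells of tumors ENG was at 162, 348 and 589 against 45.7, 79.1 and 177, with overlap (log2 difference -1.88, limma, adjusted p = 0.73).

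In CD45+ cells of young ACI rats at day 0, ENG stood at 1841, 3055 and 3702 in vehicle and at 623, 687 and 1358 in TGFBRi rats. The groups did not overlap, and ENG fell by 1.72 ± 0.32 (limma, adjusted p = 0.0119), with 2.85% of all genes called. The call was lost without vehicle rat LD3R (-1.51, adjusted p = 0.064), without TGFBRi rat LD10R (-1.58, 0.0615), and when only the 2 groups were fitted (0.155). ACVRL1 was at 665, 731.5 and 884.6 against 228.7, 349.5 and 402.8, a difference of -1.24 (limma, adjusted p = 0.102, DESeq2 0.049).

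Markers of other cells moved with ENG in this sort. The 9 fibroblast markers summed to 12720, 26600 and 32430 RPM in vehicle and 1002, 3216 and 7325 in treated rats. Blood endothelium markers summed to between 374.4 and 764.6 against 211.2 to 223.9, pericyte markers to between 55.45 and 84.75 against 12.82 to 14.77, and basal markers to between 149.6 and 438.3 against 5.509 to 8.439. Leukocyte markers overlapped (4393 to 7096 against 4920 to 6086), and neutrophil markers were at 27.88 to 88.41 against 452.8 to 1767. Their part in the ENG value was not tested. Of 14 pathway targets 4 fell, among them LTBP2 by 8.31 and TAGLN by 3.52, and of 10 ligands 1 fell, TGFB3 by 2.59, beside the 2.85% of all genes called in this comparison.

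At day 7, ENG was at 2964, 3580 and 3593 in vehicle and 2040, 2170 and 3371 in treated rats, and at day 14 at 2676, 3762 and 3917 against 4619, 4883 and 6538. Treated rats thus lay below the vehicle rats at day 0 and above them at day 14. The TGFBRi effect differed between day 14 and day 0 by 2.35 ± 0.45 (limma interaction, adjusted p = 0.0468), as 0.19% of all genes did. edgeR gave an adjusted p of 0.057, and 8 of the 12 fits without 1 rat lost the call (0.051 to 0.152, LD3R, LD4R, LD11L, LD12R, LD10R, LD7L, LD16L and LD20L). At day 14 fibroblast markers overlapped, at 18250 to 41110 in vehicle and 11580 to 89320 in treated rats. In CD45+ cells of young SD rats ENG overlapped, at 870 to 5357 in vehicle and 1205 to 2748 in treated rats. The other 7 differences between days or parity groups gave no call of a receptor (0.00384% of all genes).

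**Figure D5:**
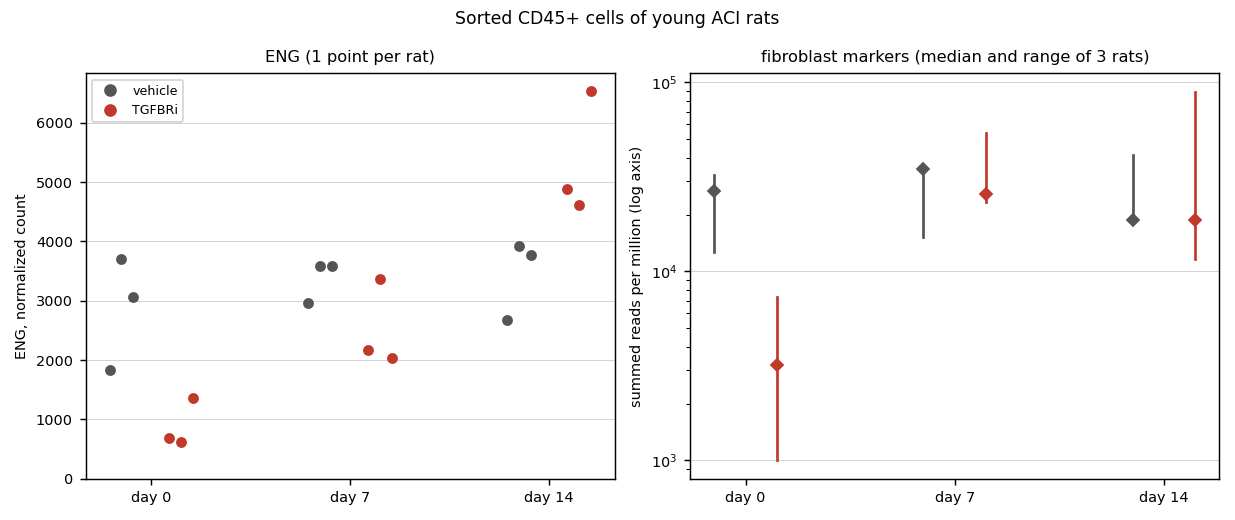
ENG normalized counts per rat (left) and summed fibroblast markers in RPM on a log axis (right, median and range of 3 rats) in CD45+ cells of young ACI rats 0, 7 and 14 days after vehicle (grey) or TGFBRi (red). At day 0 both ENG and the fibroblast markers of treated rats lie below those of vehicle rats, and at day 14 ENG lies above while the marker ranges overlap.

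In the young ACI sorts, leaving out the libraries low in long genes added a pair of calls at day 0, although no such library lay in the day 0 groups. ENG in basal cells was at 3700, 6163 and 6379 in vehicle and 2481, 2866 and 3774 in treated rats, -0.81 on the log2 scale (limma, adjusted p = 0.021, 21.7% of all genes). TGFBR2 in luminal cells was at 417, 547 and 725 in vehicle and 722, 913 and 946 in treated rats, 0.64 higher (adjusted p = 0.042, 13.8% of all genes). Both pairs of groups overlapped at 1 value. On the long-gene measure the treated rats of these groups lay above the vehicle rats without overlap, at 0.44, 0.68 and 0.83 against -0.05, 0.05 and 0.31 in basal cells and at 0.33, 0.34 and 0.47 against -0.07, -0.05 and 0.18 in luminal cells. Its part in the ENG and TGFBR2 values was not tested.

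PMEPA1, a target gene that restrains SMAD signaling, fell in the same fits by 1.73 in basal cells (limma, adjusted p = 0.027) and by 1.45 in luminal cells (0.045). Neither receptor passed with all libraries fitted. Between days in vehicle rats none of 36 tests passed (limma, 3 with an unadjusted p under 0.05, smallest adjusted p 0.25 for TGFBR3, 0.239% of all genes).

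Estradiol left no call in 24 tests over 4 comparisons (limma, 5 with an unadjusted p under 0.05, 2.98% of all genes), with smallest adjusted p of 0.124 for ENG and 0.129 for TGFBR3. All vehicle rats with E2 bore tumors, so E2 and tumor bearing cannot be told apart there. The CD45+ library low in long genes, of tumor-bearing TGFBRi rat A4-14, lay in neither group of the following comparison. Without that library in the shared fit, TGFBR3 was higher by 1.34 in CD45+ cells of tumor-free TGFBRi rats with E2 than in those without (limma, adjusted p = 0.038, 9.16% of all genes).

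The sorted single-cell classes gave 8 receptor calls in 29 tests, near the share of all genes called in the same classes. That ran from 2264 of 12695 genes in SD luminal progenitor-like to 4801 of 13826 in ACI basal-like cells, and is given with each class. Among the receptor calls, basal-like cells of treated rats had less of the type III receptors in both strains. ENG in ACI basal-like cells was at 80.3, 96.03 and 116.2 CPM in vehicle and 63.5, 59.1 and 58.5 in TGFBRi rats, and fell by 0.45 on the log2 scale (edgeR, adjusted p = 0.012, 34.7% of all genes). TGFBR3 was at 756.1, 829.4 and 904.2 against 515.9, 547.7 and 612.3, and fell by 0.34 (edgeR, adjusted p = 0.042). Neither gene overlapped, as held for 48.2% of all genes, while ACVR1B, at 23.8, 22.1 and 25.4 against 24.1, 28.9 and 24.3, overlapped and was 0.34 higher (edgeR, adjusted p = 0.036). The fitted values are relative to library factors (TMM). On plain CPM, where the median over all genes was -0.19 in this class and between -0.18 and -0.28 in the sorted classes of both strains, ENG differed by -0.68, TGFBR3 by -0.57 and ACVR1B by 0.11.

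In SD basal-like cells ENG was at 55.2, 52.3 and 89.9 in vehicle and from 20.5 to 50.53 (median 27.9) in 6 treated rats, and fell by 0.69 (edgeR, adjusted p = 0.075, 29.6% of all genes). TGFBR3 was at 579, 536 and 609 against 128 to 448 (median 226), and fell by 0.80 (adjusted p = 0.060). TGFBR1 was at 35.2, 26.3 and 38.5 against 11.3 to 20.95 (median 15.9), and fell by 0.62 (adjusted p = 0.081). All 3 separated the groups without overlap. So did TGFBR2, at 22.46 to 29.95 against 5.98 to 20.88 (-0.75, edgeR, adjusted p = 0.129), and ACVR1B, at 16.64 to 35.28 against 11.84 to 16.27 (-0.55, adjusted p = 0.113), which did not pass. In this class the groups did not overlap for 29.4% of all genes. On plain CPM, where the median over all genes was -0.23, the differences were -1.09 for ENG, -1.2 for TGFBR3, -1.01 for TGFBR1, -1.1 for TGFBR2 and -0.93 for ACVR1B.

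The SD calls depended on single rats, with adjusted p of 0.112 to 0.411 for ENG and 0.115 to 0.302 for TGFBR1 without SD1, SD3, SD11, SD12 or SD13, and 0.105, 0.162 and 0.1996 for TGFBR3 without SD12, SD1 or SD3. In ACI rats TGFBR3 lost its call without ACI12 (0.199), ACI15 (0.163) or ACI8 (0.103), ACVR1B without ACI15 (0.101) or ACI8 (0.111), and ENG kept its call in all such fits. Basal-like cells of treated and vehicle rats lay largely in different clusters. In the SD basal sort, fibroblast-like cells were 2.18 to 51.51% (median 3.88) in treated and 0.42 to 6.88% in vehicle rats. Over all cells of that sort, ENG had an adjusted p of 0.216 and TGFBR1 of 0.104.

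TGFBR2 fell in mature luminal-like cells of both strains. In ACI rats it was at 60.98, 56.6 and 53.2 in vehicle and 28.7, 28.997 and 34.8 in treated rats (log2 difference -0.67, edgeR, adjusted p = 0.0026, 26.1% of all genes). In SD rats it was at 28.6, 22.4 and 25.7 against 4.39 to 14.6 (median 7.70, -1.37, adjusted p = 0.0145, 30.7% of all genes). The groups did not overlap in either strain, as for 38.5% of all genes in ACI and 26.3% in SD, and both calls held without any 1 rat. Over all cells of the luminal sort TGFBR2 also fell, by 0.52 in ACI (edgeR, adjusted p = 0.046) and by 1.02 in SD rats (0.050). The bulk luminal sorts of the same strains at day 0 did not show this fall. In ACI rats, as above, TGFBR2 there was 0.64 higher in treated rats (limma, adjusted p = 0.71 with all libraries and 0.042 without those low in long genes), and in SD rats it was at 172, 332, 225 and 418 normalized counts in vehicle and 269, 511, 207 and 208 in treated rats, a log2 difference of 0.035 (adjusted p = 1.00). No test was made between the bulk and single-cell values. In SD rats different clusters held most of the class in the 2 groups, since cluster 2 (3757 cells) was 1.5% vehicle, cluster 7 (2449 cells) 56.1% and cluster 12 (1683 cells) 19.6%. In luminal progenitor-like cells no receptor passed (30.5% of all genes in ACI, 17.8% in SD), but TGFBR2 lay lower without overlap there too (as did 46.6% and 21.7% of all genes in either direction), at 22.49 to 28.01 against 13.45 to 16.5 in ACI (-0.34, edgeR, adjusted p = 0.118) and at 9.81 to 12.4 against 0 to 8.83 in SD (-0.33, adjusted p = 0.468). On plain CPM these differences were -0.66 and -1.08, beside medians over all genes of -0.28 and -0.27. Of the 6 treated SD rats, 3 had only 20, 34 and 113 such cells. In these rats, SD12, SD11 and SD13, 57.77, 46.77 and 38.42% of luminal cells lay in unnamed clusters. Different clusters held most of this SD class in the groups too: cluster 0 (4318 cells) was 95.1% vehicle, cluster 1 (3913 cells) 5.3% and cluster 11 (1779 cells) 0.2%.

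Called genes of the pathway lists lay in both directions. In ACI basal-like cells, where 34.7% of all genes passed, 1 of 11 SMADs and feedback genes rose and 4 fell, 3 of 7 ligands rose, 1 of 11 other receptors rose and 3 fell, and 3 of 11 targets rose and 2 fell, led by LDLRAD4 (-1.21), CCN2 (-2.47) and BMPR1A (-0.72), a type I receptor for BMPs. In SD basal-like cells, against 29.6% of all genes, 5 of 11 SMADs and feedback genes and 4 of 12 other receptors fell. Counts of targets and ligands are not given for this class. Over all lists, the called genes with the smallest p were CCN2, a target (-1.54), RGMB (-1.39) and LDLRAD4 (-1.30). In mature luminal-like cells 4 of 11 SMADs and feedback genes fell in ACI and 5 of 12 in SD rats, and 1 rose in each, against 26.1% and 30.7% of all genes. No test set these lists apart from all genes.

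In the unsorted SD gland TGFBR3 was higher in 6 classes of treated rats. The family gave 17 calls in 74 tests, 13 higher and 4 lower, near the 21.3% of all genes called over the same 13 classes. In basal-like cells TGFBR3 was at 93.4, 82.8 and 111.4 CPM in vehicle and from 198.2 to 340.5 (median 220.6) in 6 treated rats, and rose by 1.45 (edgeR, adjusted p = 0.00027, 45.4% of all genes). In luminal progenitor-like cells it was at 13.2, 7.48 and 13.3 against 38.8 to 62.7 (median 44.9), and rose by 1.93 (adjusted p = 0.00097, 28.2%). In fibroblast-like cells it was at 104.5, 95.6 and 102.9 against 206.0 to 325.8 (median 248.0), and rose by 1.16 (adjusted p = 0.0010, 29.4%).

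TGFBR3 also rose in blood endothelium-like cells, from 52.7, 44.4 and 93.1 to between 155.9 and 191.0 (median 174.6, 1.24, edgeR, adjusted p = 0.00075, 31.9% of all genes). The groups did not overlap in these 4 classes, as for 33.4% of all genes in basal-like, 23.9% in luminal progenitor-like, 24.9% in fibroblast-like and 22.2% in blood endothelium-like cells. It rose by 0.97 in Schwann-like cells (264.8, 207.6 and 169.3 against 328.9 to 527.5, edgeR, adjusted p = 0.0012, 10.3%), a call lost without doublets, and by 0.93 in lymphatic endothelium-like cells (146.7, 64.2 and 99.1 against 143.7 to 293.1, adjusted p = 0.027, 15.4%), where the groups overlapped. Without doublets the Schwann-like difference was still 0.97 (edgeR, adjusted p = 0.329). Rat ly1 then held 0 TGFBR3 UMIs in 21 cells, and the other 5 treated rats stood at 340.2 to 637.01 against 186.01 to 264.8 in vehicle rats. Treated rats thus lay on both sides of the vehicle rats, since the 0 of ly1 allows at most 71 CPM (counting error only). In B cell-like cells, which hardly held TGFBR3, it was at 1.71 in vehicle and 1.602 in treated rats.

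Sorted basal-like cells of SD rats thus had lower TGFBR3, at 128 to 448 in treated against 536 to 609 in vehicle rats, and basal-like cells of the unsorted gland had higher TGFBR3, at 198.2 to 340.5 against 82.8 to 111.4. In the bulk basal sort of SD rats at the same day TGFBR3 overlapped, at 1359, 1163, 1257 and 1998 normalized counts in vehicle and 1660, 1647, 1291 and 1817 in treated rats (log2 difference 0.17, limma, adjusted p = 0.98). TGFBR1 there was at 312 to 478 in vehicle and 415 to 509 in treated rats (0.21) and TGFBR2 at 1244 to 1510 and 1155 to 1982 (0.21), and neither passed. The fall of TGFBR3 and TGFBR1 in sorted single basal-like cells was thus not seen in the bulk sort. ENG overlapped in the bulk basal sort, at 2180 to 3606 in vehicle and 1679 to 3260 in treated rats. In basal-like cells of the unsorted gland its mean was 41.86 CPM in vehicle and 43.53 in treated rats. The sorted single cells were counted with 3' and the unsorted with 5' chemistry, in different rats, and no test was made across the 3 tables.

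TGFBR2 rose in both endothelial classes. In blood endothelium-like cells it was at 90.3, 98.1 and 115.6 in vehicle and 163.4 to 211.9 (median 180.7) in treated rats (0.65, edgeR, adjusted p = 0.0025), and in lymphatic endothelium-like cells at 67.4, 108.6 and 74.8 against 120.9 to 310.1 (median 175.4, 1.01, adjusted p = 0.011). In mature luminal-like cells it fell by 0.58 (40.7, 37.7 and 50.46 against 23.1 to 40.6, edgeR, adjusted p = 0.029, 27.9%), with overlap, and not without rat veh4 (-0.45, 0.149). ACVRL1 rose by 0.68 in blood endothelium-like cells (17.5, 22.02 and 39.96 against 45.02 to 57.5, edgeR, adjusted p = 0.030), but not without rat veh1 (0.140) or veh2 (0.143).

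ACVRL1 was also higher in fibroblast-like cells, with means of 26.5 in vehicle and 45.3 in treated rats (0.54, edgeR, adjusted p = 0.055, 0.211 without veh1, 0.168 without veh2), and in macrophage-like cells, with 8.24 and 17.5 (0.82, adjusted p = 0.096, 8.53% of all genes, 0.144 to 0.243 without ly1, ly4, ly6, ly14, veh1 or veh2). ACVR1B rose by 1.08 in basal-like cells (5.76, 6.98 and 8.90 against 12.2 to 15.6, edgeR, adjusted p = 0.00062) and by 1.09 in fibroblast-like cells (5.30, 4.93 and 3.53 against 9.62 to 13.2, adjusted p = 0.0015), without overlap in either.

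ENG did not pass in blood endothelium-like cells, its main site, at 994.8, 951.7 and 746.8 in vehicle and 956.4 to 1061 (median 1027) in treated rats. It was lower in mature luminal-like cells (10.99, 6.42 and 6.79 against 1.72 to 3.14, -1.87, edgeR, adjusted p = 0.00074), beside means of 6.15 and 3.36 in B cell-like and 5.08 and 2.18 in T cell-like cells. It was lower in Schwann-like cells by 0.85 (adjusted p = 0.049, 0.522 without doublets, 0.105 to 0.145 without ly4, ly14, veh1 or veh2) and in macrophage-like cells by 0.79 (adjusted p = 0.048, 0.140 without doublets, 0.102 without ly14, 0.1015 without ly6, 0.178 without veh2). Blood endothelium-like cells were 7.27 to 16.4% of cells in vehicle and 4.09 to 11.16% in treated rats, and whether their free RNA had a part in these low values was not tested.

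TGFBR1 passed in none of the 13 classes, with means of 18.5 in vehicle and 20.5 in treated rats in basal-like cells (edgeR, adjusted p = 0.33) and 31.8 and 40.0 in mature luminal-like cells (0.33). In the 5 classes without any call of a receptor, pooled, 13.5% of all genes passed. The median over all genes on plain CPM moved by at most 0.19 in any class of the unsorted gland.

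Called genes of the pathway lists lay in both directions in the same classes, and no test set the lists apart from all genes. In fibroblast-like cells, where 29.4% of all genes passed, 4 of 14 targets fell and 0 rose, 1 of 12 SMADs and feedback genes rose and 3 fell, and the genes with the smallest p were INHBA, an activin subunit (-2.59), CDKN2B, a cell cycle inhibitor (-2.62), and SKI, a SMAD corepressor (1.06). In blood endothelium-like cells, against 31.9% of all genes, 1 of 14 targets rose and 3 fell, with CDKN1A at -0.56, INHBB at -1.31 and SPHK1 at 1.17. In basal-like cells, against 45.4%, 4 of 14 targets and 5 of 12 SMADs and feedback genes rose and 2 of each fell, with SPHK1 at 1.75, SKIL at 1.46 and SMAD3 at -1.25. In luminal progenitor-like cells, against 28.2%, 5 of 13 targets fell and 1 rose, and 3 of 6 ligands rose and 1 fell, among them TGFB3 (2.16) and INHBB (2.32), and RGMA, a BMP coreceptor, rose by 1.79. In mature luminal-like cells, against 27.9%, 5 of 12 targets fell and 0 rose, with TGIF1 at -0.87 and ID1 at -1.42, and LRRC32, which displays latent TGF-beta at the cell surface, fell by 2.96.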

How the data were processed

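Bulk RNA was amplified with a low-input poly-A kit. The authors aligned reads to rn6 with STAR 2.5.1b, counted them with HTSeq without strand, and deposited normalized counts, a signal on the scale of reads divided by DESeq2 1.30.1 size factors. Dividing by the step of each column gave whole reads for 100% of 2526550 values (tolerance 0.001), with 4194912 to 52314784 reads per sample. Rows naming no gene, 23.1 to 42.5% of reads where present, were left out. No 2 samples held identical reads. The authors deposited UMI counts per cell from Cell Ranger 4.0.0 (sorted cells) and 7.0.0 (whole gland, without introns), filtered with Seurat 4.0.0 and 4.1.1. The barcodes in the files equal the cell numbers the study states. Any 2 libraries shared at most 284 barcodes (whole gland), 7 (sorted SD) and 3 (sorted ACI).

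Bulk values were tested as log2(value + 1) with limma 3.58.1 (R 4.3.3; trended, robust), keeping genes whose values summed to 10 or more, in 1 model per sort and data set with a Benjamini-Hochberg adjusted p of 0.05. UMI counts summed per rat and class were tested with edgeR 4.0.16 (quasi-likelihood, TMM, at least 10 counts, adjusted p of 0.1). edgeR and DESeq2 1.42.0 on the recovered reads were alternatives. Cells were clustered without the receptor genes (Leiden), and clusters were named from marker lists by a rule set after the data were seen. Doublets stayed in, and the 6% of highest Scrublet scores (6069 whole-gland cells) were left out as an alternative. A bulk library was called low in long genes where the median log2 deviation from its sort of the longest 20% of genes, minus that of the shortest 20%, was -0.5 or less, a definition chosen after seeing the data. Members, lists and comparisons were chosen with earlier results of these data known. Named genes are the 6 receptors, the 3 genes most correlated with each across classes, and the 3 pathway genes with the smallest p among those called in a comparison described. An item that this rule names is not reported here. Basal and luminal sorts came from the same rats. Their deviations correlated with a median r of 0.18 over 35 bulk pairs (26 over 0.1) and 0.23 over 15 single-cell pairs (12 over 0.1). On simulated data with 100 genes changed 2-fold and 100 changed 4-fold, limma recovered 36 and 82 of them in 8 young SD basal libraries with 4 false calls, and edgeR recovered 76 and 99 in whole-gland fibroblast-like cells with 30 false calls. Intervals cover counting error only. Protein and transcript sequences were not used here.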

Additional observations from a re-analysis of the deposited data

Results flagged for a closer look

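In groups of 4 to 10 samples, 16 of 228 tested sets of receptor values had 1 sample far from the others, where chance alone gives about 1 in 20, or 11.4. Of these, 10 lay in bulk sorts. In the estradiol experiment, CD45+ cells of vehicle rat A4-28 without E2 had 7.553 normalized counts of ACVRL1, rat A4-4 of the tumor-free TGFBRi group had 202.6 of ACVRL1 and 130.4 of ACVR1B, and luminal cells of tumor-bearing vehicle rat A4-1 had 610.7 of TGFBR1. In adult ACI rats, TGFBR1 was at 555.8 in basal cells of treated parous rat P2N, TGFBR2 at 2550 in CD45+ cells of virgin vehicle rat N1N, ACVRL1 at 0 in basal cells of treated virgin rat N2N, TGFBR3 at 3168 in basal cells of virgin vehicle rat N2N and ENG at 5526 in luminal cells of virgin vehicle rat N1N. The basal library of treated rat N2N was low in long genes. In young SD basal cells, ACVRL1 was at 478.4 in treated rat D8N.

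The other 6 lay in single-cell classes of treated SD rats. ENG in sorted basal-like cells was at 50.53 CPM in rat SD10, and in sorted luminal progenitor-like cells ACVR1B was at 3.77 in rat SD13 and ACVRL1 at 0.083 in rat SD14. Rat SD13 had 113 such cells. The ACVRL1 value of SD14 came from 1 UMI, the only one in this class of the treated rats. In the unsorted gland, TGFBR1 was at 5.538 in Schwann-like cells of rat ly1 and at 9.314 in pericyte-like cells of rat ly4, and TGFBR3 was at 0 in neutrophil-like cells of rat ly1.

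The TGFBRi effect differed between groups in 2 tests of the difference itself (limma interaction): by 2.70 on the log2 scale for TGFBR1 in basal cells, parous against virgin adult ACI rats, and by 2.35 for ENG in CD45+ cells, day 14 against day 0 of young ACI rats.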

How the results depend on the processing

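Among the bulk comparisons of TGFBRi with vehicle, 4 receptor tests passed, against 7 with DESeq2 and 1 when only the groups compared were fitted, and 3 to 6 when 1 sample was left out. The 4 stand beside the share of all genes given above, and counts over all genes under other settings follow below. Basal against luminal sorts gave 13 calls of 30, and 20 both with the rat as a replicate block and without the libraries low in long genes, an alternative chosen after seeing the data (12 to 15 without 1 sample). Of 14623 to 15824 genes tested, these 5 comparisons called 2323 to 5993. With the block they called 4228 to 6276, and without those libraries 3215 to 5507. The 2 differences of effect became 1 with a pseudocount of 5, with edgeR and with only the groups compared (1 to 3 without 1 sample). Estradiol gave 0 calls, 1 with DESeq2, 1 without the libraries low in long genes and 2 with only the groups compared (0 to 1 without 1 sample). Sorted single cells gave 8 calls in 29 tests (5 to 10 without 1 rat). In their classes from 2264 of 12695 genes (SD luminal progenitor-like) to 4801 of 13826 (ACI basal-like) passed. The sorts compared gave 9 calls in 12 tests (7 to 9 without 1 library), beside 9942 of 15242 genes in ACI and 6621 of 15922 in SD rats. The unsorted gland gave 17 in 74 tests (13 to 21 without 1 rat), near the share of all genes given above. Class order gave 13 passed steps, 9 without doublets and 8 at a clustering resolution of 0.5. For days and parity the 0 calls stayed 0 without 1 sample. TGFBR2 in basal against luminal ACI cells at day 14 changed sign in 3 fits without 1 library (-0.02689, -0.2881 and -0.5766, with 0.9987 the highest of all 6). TGFBR2 in pericyte-like cells also changed sign when 1 rat was left out (-0.108 to 0.2245, the lowest without veh4). Of single receptor tests under other settings with all samples, 393 kept their side of the threshold, 44 gained and 24 lost it. Counts over all genes moved more: ENG's CD45+ comparison at day 0 had 420 genes with limma, 192 with edgeR, 1031 with DESeq2 and 29 with only its groups. The adult virgin basal one had 1173, 881, 1653 and 136 (594 without the libraries low in long genes), and the NMU basal one 174, 266, 1029 and 84 (81 without a filter, 111 without those libraries). The difference of effect in adult basal cells had 140 genes with limma and 577 with DESeq2, and that of day 14 in CD45+ cells 28, 829 with DESeq2, 4 with only its groups and 14 with a pseudocount of 5. The cause was not tested.

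Names shared by adult rats (median r -0.02, 3 of 21 pairs over 0.1) and numbers shared by whole-gland rats (10 of 39 over 0.1) did not pair samples. With that number as a replicate block, only rats veh1, veh2, veh4, ly1, ly2 and ly4 were fitted, and the other treated rats were left out. In that fit (edgeR) the adjusted p was 0.107 for TGFBR3 in lymphatic endothelium-like and 0.258 for TGFBR2 in mature luminal-like cells. It was 0.124 and 0.347 for ACVRL1 in fibroblast-like and macrophage-like cells, and 0.469 for ENG in macrophage-like cells. Blocking and the smaller number of rats cannot be told apart there.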
